A study of Danio rerio with 12 samples.

Results

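The genes described here encode peptide and glycoprotein hormones of the pituitary gland, and their transcripts were measured in gill RNA of adult zebrafish (Danio rerio). The members are gh1 (growth hormone), prl (prolactin), tshba (thyrotropin beta subunit), cga (the alpha subunit of the glycoprotein hormones), lhb and fshb (luteinizing and follicle-stimulating hormone beta subunits) and pomca (proopiomelanocortin). They are 7 of the 13443 genes that array probes could be matched to by RefSeq accession, and 8 probes measured them. They were chosen by name, as hormone genes of this gland, and by signal, as genes whose probes stood well above background on some arrays, to be set beside 4 arrays low in eye transcripts. Of the members, gh1 and pomca were well above background on 11 of 12 arrays and fshb on the fewest, 4. Their levels by array are therefore a description with no test, while the comparisons between exposures and controls were not part of the choice.

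The pituitary is an endocrine gland on the underside of the brain, driven by hypothalamic peptides, whose hormones reach gill, gonad, thyroid tissue, interrenal tissue and liver through the blood. Growth hormone, prolactin and somatolactin are related proteins, and prolactin is known in freshwater fish for limiting ion loss across the gill. Thyrotropin and both gonadotropins each consist of a beta subunit of their own bound to the common alpha subunit. Proopiomelanocortin is cut into corticotropin, melanocyte-stimulating hormones and beta-endorphin by prohormone convertases. The gill is known mainly as a target of these hormones.

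RNA came from 12 samples, each the pooled gills of 10 adult fish, 3 samples for each of 4 groups. Controls were untreated, and the others were held for 96 h in water with nanoparticles of CuO at 0.2 mg/L, ZnO at 4.8 mg/L or NiO at 17.5 mg/L. Doses followed the median lethal concentration of each metal oxide, per the series' design text, so the exposures differed in dose as well as in metal. The labels describe the exposure as without feeding.

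Each sample was hybridised to a one-colour Agilent array, on which 75.5% to 88.3% of spots were well above background and 0 were saturated. A level here is the log2 processed signal of a probe minus the 75th percentile of its array, so that a difference of 1 is a 2-fold difference in signal. Levels of different probes are not compared, because probes differ in brightness. Between 14 and 16 of 16 tested ionocyte genes and between 7 and 9 of 9 tested epithelial genes were well above background on each array. These counts cannot check the gill label, because tested genes were well above background throughout some group. Pancreas genes (14 to 15 of 15) and skeletal muscle genes (12 to 14 of 14) gave similar counts. Lens and retina genes were also well above background on every array, and their level split the arrays: the lens median lay between 1.36 and 3.32 on 8 arrays and between -5.42 and -4.58 on control 3, CuO 3, ZnO 1 and NiO 2. The samples within a group correlated across genes at r = 0.912 to 0.924 in the controls and between 0.82 and 0.967 in the exposed groups. In the deposited series table, 10 of 12 columns held the values of another sample's array, and which source carries the intended sample names cannot be settled from these files. Groups were taken from the scanner files, which are linked to their samples; under the table's column names 0 genes passed in any exposure contrast. The number of arrays, 3 per group, limits the precision of every comparison.

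Growth hormone and prolactin, hormones of growth and of ion balance, were either bright or nearly dark. The level of gh1 was -6.09, 0.27 and -6.75 in controls 1, 2 and 3, and 0.62, 0.71 and -6.58 under CuO. Under ZnO it was -8.91, 1.32 and 0.48, and under NiO 0.60, -6.26 and 0.62. Thus gh1 was high on 7 arrays, with an SD of 0.33 around a median of 0.62, and low on control 1, control 3, CuO 3, ZnO 1 and NiO 2, where ZnO 1 was not well above background. The lowest of the 7 lay 6.36 above the highest of the 5, an 82.2-fold gap in signal, and every group held both kinds of array.

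For prl the levels were -8.72, -0.12 and -6.50 in the controls and -0.87, -0.04 and -6.003 under CuO. They were -9.29, 1.87 and 1.56 under ZnO and 0.42, -8.44 and 1.62 under NiO. The same 5 arrays were low, 3 of them not well above background (control 1, ZnO 1 and NiO 2). The gap between both sets of arrays was 5.13, or 35.0-fold, and the 7 higher arrays spread more than for gh1 (SD 1.06).

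Somatolactin beta (smtlb), a related hormone of the pars intermedia that was no member, had levels of -8.13, 1.03 and -5.53 in the controls and 1.78, 1.66 and -7.52 under CuO. It had -6.71, 0.90 and -1.62 under ZnO and -2.88, -7.29 and -2.58 under NiO. It too was lowest on these 5 arrays, with a gap of 2.65. The paralog smtla kept between -4.18 and -1.71 and pomcb between -4.44 and -2.56 on all 12 arrays, and both overlapped between the 5 arrays and the other 7.

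Proopiomelanocortin split the arrays in the same way with a smaller gap. The level of pomca was -2.40, -0.15 and -2.35 in the controls and 1.60, 1.37 and -4.13 under CuO. It was -7.55, 1.43 and 0.76 under ZnO and 1.09, -5.40 and 1.07 under NiO. Controls 1 and 3 were the least low of the 5, and the lowest, ZnO 1, was not well above background. Among the 7 other arrays control 2 was the dimmest, so that the gap of 2.20, or 4.61-fold, is the distance between control 2 and control 3.

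The alpha subunit cga, needed for thyrotropin and both gonadotropins, had levels of -7.62, -1.99 and -8.06 in the controls and 0.47, -2.34 and -8.97 under CuO. Under ZnO the levels were -8.86, -1.96 and -2.98, and under NiO -1.62, -8.39 and -3.73. It was well above background on the 7 arrays high in gh1 and on none of the 5 others. The measured gap was 3.89.

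The thyrotropin beta subunit tshba, which signals to thyroid follicles, followed the split on all arrays but control 2. It was well above background on 6 of the 7 arrays high in gh1 and on 1 of the 5 others (ZnO 1). Its levels were -7.47, -7.57 and -9.18 in the controls, none well above background, and -5.24, -5.40 and -7.84 under CuO. They were -6.60, -4.61 and -5.51 under ZnO and -5.30, -7.33 and -5.43 under NiO. CuO 3 and NiO 2 were also not well above background, and control 2, high in gh1, prl and pomca, was as dim for tshba as control 1.

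The beta subunit of luteinizing hormone, lhb, which drives ovulation and steroid synthesis, had levels of -7.49, -4.18 and -8.85 in the controls and -2.99, -2.28 and -6.28 under CuO. It had -5.00, -4.60 and -3.39 under ZnO and -4.84, -7.37 and -5.28 under NiO. Both CuO 1 and CuO 2 stood above all other arrays, and control 1, control 3 and NiO 2 were not well above background. ZnO 1, low in gh1, prl and pomca, overlapped the arrays that were high in them.

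The beta subunit of follicle-stimulating hormone, fshb, which acts on ovarian follicles and testis, showed another order. Its brighter probe had levels of -5.52, -6.80 and -5.25 in the controls and -8.36, -5.92 and -7.07 under CuO. The levels were -9.55, -8.85 and -9.30 under ZnO and -8.66, -6.41 and -7.49 under NiO. The 3 controls and CuO 2 were well above background and the other 8 arrays were not. The second probe gave -4.13, -6.89 and -5.76 in the controls. Its CuO arrays ran from -9.01 to -6.92, its ZnO arrays from -9.22 to -8.79 and its NiO arrays from -8.75 to -8.20, with the same 4 arrays well above background.

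**Figure D1:**
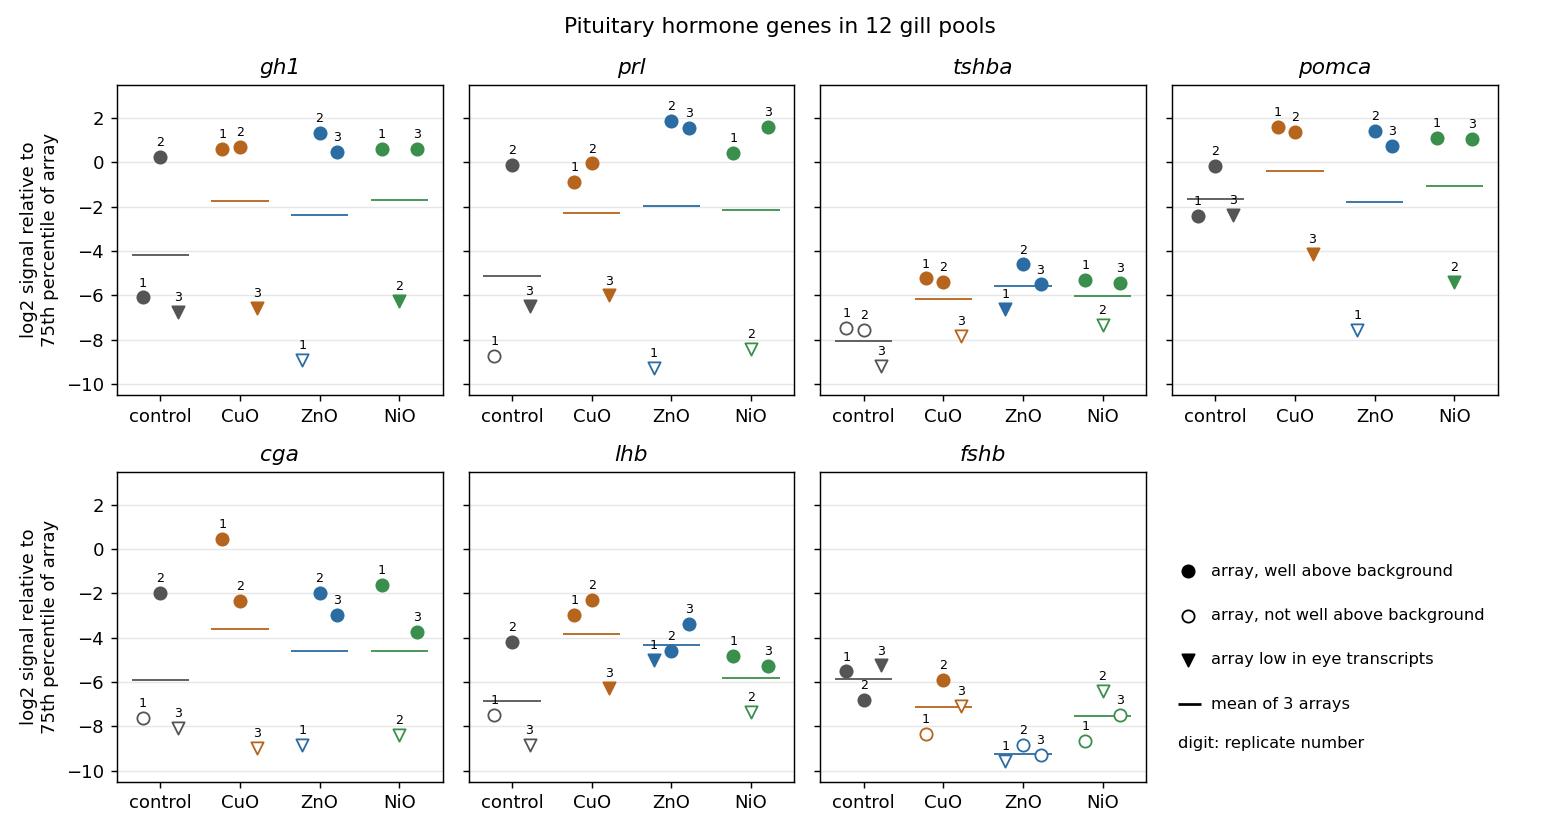
Level of the 7 pituitary hormone genes on each of 12 arrays, by group (log2 processed signal minus the array's 75th percentile, linear axis); each point is 1 array, triangles are the 4 arrays low in eye transcripts and open symbols were not well above background. Lines are means of 3 arrays and digits replicate numbers. The genes gh1, prl, pomca and cga are low on all triangles and also on control 1 (a circle), whereas tshba, lhb and fshb overlap.

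Set beside the eye transcripts, the hormone genes split the arrays in a different place. Control 1 held eye RNA, with a lens median of 1.36 and a retina median of -0.25, yet gh1, prl, pomca and cga were low there. Of the 7 members, gh1 and cga were lower on all 4 eye-low arrays than on each of the other 8, but only just: gh1 was -6.26 on NiO 2 and -6.09 on control 1, and cga was -8.06 on control 3 and -7.62 on control 1. Over all tested genes 2.44% were lower on the 4 arrays in this way. The members were chosen in view of this pattern, so nothing is read from their count. With control 1 among the low arrays, a set made after the values were seen, 4 of 7 members (gh1, prl, pomca and cga) were lower on the 5 than on each of the other 7. That held for 3 of the 6 tested members and for 3.94% of all tested genes.

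All 20 tested lens genes and 24 of 29 tested retina genes were lower on the 4 arrays than on the other 8. The 4 arrays were picked as low in eye transcripts, so nothing is read from these counts. Beside 3.94% of all tested genes, 13 of 20 lens and 12 of 29 retina genes were lower on the 5 than on the other 7. The 5 include the 4 picked arrays, so nothing is read from these counts either. The signal of the eye genes was not at zero on the eye-low arrays, where 12 to 17 lens genes and 20 to 24 retina genes stayed well above background. Summed over the lens list, the control signal relative to the 75th percentile ran from 2.39 to 103. CuO arrays ranged from 1.43 to 167, ZnO arrays from 1.2 to 209 and NiO arrays from 0.965 to 139. For the retina list the 4 group ranges were 1.91 to 70.4, 2.12 to 155, 2.67 to 172 and 2.88 to 119, in the same order.

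Brain genes did not divide the arrays as sharply. The median brain marker level was -1.25, -1.51 and -2.98 in controls 1, 2 and 3, and 1.03, 0.57 and -1.025 under CuO. It was -1.035, 0.94 and 0.05 under ZnO and 0.27, -0.84 and 0.38 under NiO, so the eye-low array was the lowest of each group. On the 4 eye-low arrays 8 of 24 genes were lower than on each of the other 8, beside 2.44% of all tested genes. With control 1 added to the low arrays the count was 7 of 24, beside 3.94%. Summed brain signal was 10.8 to 24.8 in the controls and 24.3 to 83.9 in the exposed groups, and 22 to 24 of the 24 genes were well above background on each array. Control 2 had gh1, prl, pomca and cga at a high level and a brain median of -1.51, and control 1 had them low and a brain median of -1.25. The summed brain signal had the opposite order, with 24.8 in control 2 and 23.6 in control 1. In bulk RNA, fewer cells of a type and less RNA per cell cannot be told apart, and the part that eye, brain or pituitary tissue in a pool has in these levels was not tested.

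**Figure D2:**
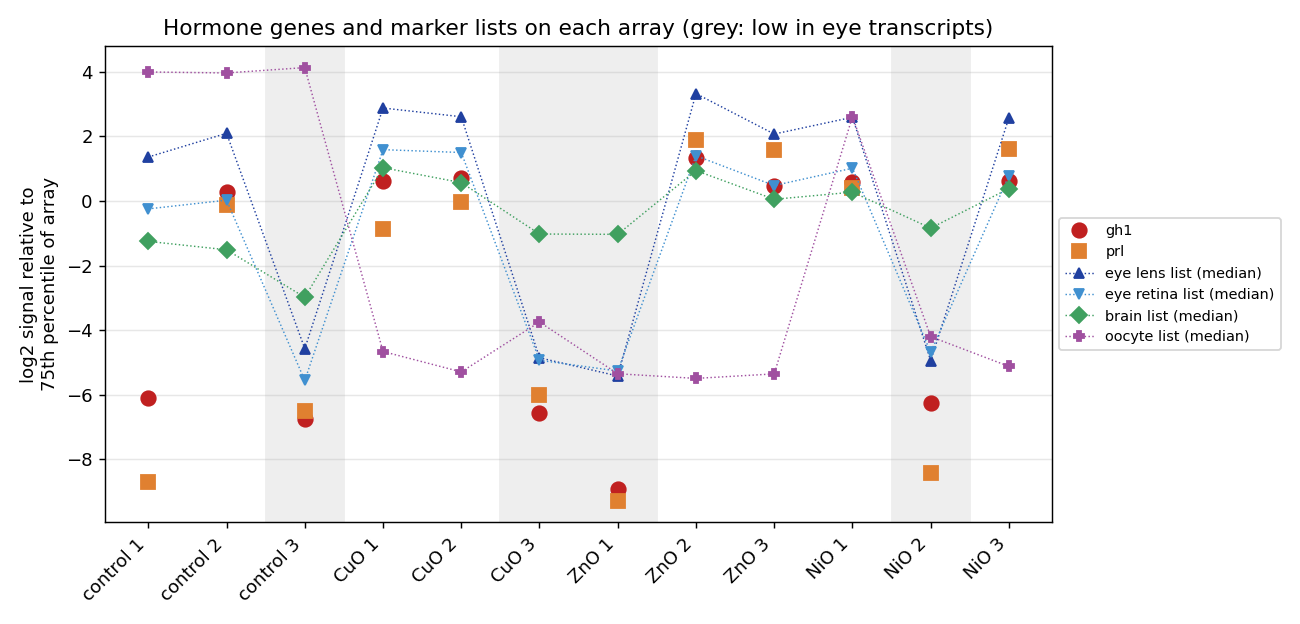
Level of gh1 and prl and median level of 4 marker lists on each array (log2 relative to the array's 75th percentile), with the 4 eye-low arrays on grey bands. Lens and retina medians drop on the grey bands only, while control 1 keeps them and has gh1 at -6.09, and the oocyte median is between 2.61 and 4.13 on the controls and NiO 1 and between -5.50 and -3.75 on the other 8 arrays.

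Each exposure was then compared with the controls in a single limma fit of all 12 arrays, with p-values adjusted by the Benjamini-Hochberg method over 12616 tested genes. The question was whether nanoparticles changed these transcripts in the gill samples. Of the 6 tested members 0 passed an adjusted p of 0.05 under CuO, 1 under ZnO (fshb, lower) and 0 under NiO. Over all genes 25.1% passed under CuO, 25.7% under ZnO and 22.2% under NiO. By direction, 11.4% of all genes were higher and 13.7% lower under CuO, 13.8% and 11.9% under ZnO, and 10.1% and 12.1% under NiO. At an unadjusted p of 0.05, 2 members passed in each contrast: tshba and lhb under CuO, tshba and fshb under ZnO and NiO. That is near the share of all genes at this level, 40.2% under CuO, 39.3% under ZnO and 36.6% under NiO. The member cga was not tested because no group had all 3 arrays well above background.

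The fall of fshb under ZnO was the only member call. The gene was tested only because the controls, its highest group, were all well above background; with no filter on dim probes its adjusted p was 0.0095, and with a filter of 6 arrays it was not tested. The brighter probe averaged -5.86 ± 0.83 (SD, n = 3) in the controls and -9.23 ± 0.36 (SD, n = 3) under ZnO, a log2 difference of -3.37 (SE 0.71, 95% interval -4.95 to -1.79, limma adjusted p = 0.00879). As no ZnO array was well above background, the fall is given as at least 2.25-fold, and all 3 ZnO arrays lay below all 3 controls. Of all tested genes, 42.8% had non-overlapping arrays in this contrast, counting both directions. Without any 1 of the 12 arrays the call was kept, but it was lost with normexp background correction (log2 difference -0.46, smaller than the bound, adjusted p = 0.227) and without the 4 eye-low arrays (-2.91, adjusted p = 0.0617). The normexp correction added an offset of 50 to each signal, while the processed signals of fshb under ZnO were 2.71 to 3.60. Such an offset shrinks differences of dim genes, so nothing is read from their smaller normexp values, here or below.

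Oocyte transcripts moved with this contrast. Of 15 tested oocyte genes 14 passed under ZnO, all of them lower than in the controls, beside 11.9% of all tested genes called lower. The median oocyte level was between 3.96 and 4.13 in the controls and between -5.50 and -5.35 under ZnO, and the summed oocyte signal was 213 to 275 against 0.506 to 0.836. NiO 1, with an oocyte median of 2.61, had fshb at -8.66 and not well above background. The part of ovarian tissue in the fshb difference was not tested.

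The mean of fshb was -7.11 ± 1.22 under CuO and -7.52 ± 1.13 under NiO (SD, n = 3 each). Neither log2 difference passed in limma, with -1.26 (95% interval -2.84 to 0.32, adjusted p = 0.207) under CuO and -1.66 (-3.24 to -0.08, adjusted p = 0.119) under NiO. No NiO array was well above background, which gives at least 1.77-fold lower for that contrast. The F test over all 4 groups passed for fshb alone among the members (adjusted p = 0.0337), as it did for 20.9% of tested genes. It passed for 0 members without control 1, control 3, CuO 3, any of the ZnO arrays or NiO 3.

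Thyrotropin beta had the next lowest p-value of the members under ZnO, the lowest under NiO and the next lowest after lhb under CuO. Control arrays averaged -8.07 ± 0.96 for tshba, CuO arrays -6.16 ± 1.45, ZnO arrays -5.57 ± 1.00 and NiO arrays -6.02 ± 1.13 (SD, n = 3 each). The log2 differences were 1.91 (95% interval 0.01 to 3.81, adjusted p = 0.122), 2.502 (0.60 to 4.40, adjusted p = 0.0549) and 2.05 (0.15 to 3.95, adjusted p = 0.111) by limma. None of the 3 passed the threshold, and tshba was tested only through ZnO, its highest group and the only one with 3 arrays well above background. Against controls that were not well above background, the ZnO signal was at least 3.22-fold higher. With normexp background correction the log2 differences were smaller than these values and that bound, at 0.84, 0.91 and 0.78. CuO 3 overlapped the controls for tshba. The ZnO and NiO arrays all lay above the 3 controls, beside 42.8% and 42.5% of all genes that did not overlap, higher or lower. Under NiO this rests on NiO 2 (-7.33) and control 1 (-7.47), neither well above background. Of 24 brain markers, 8, 5 and 5 were called higher under CuO, ZnO and NiO and 0 lower. Over all genes 11.4%, 13.8% and 10.1% were called higher. The part of brain tissue in tshba was not tested.

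Whether tshba passed depended on single arrays. Under ZnO it passed without ZnO 1 (log2 difference 3.02, adjusted p = 0.0457), without CuO 3 (2.502, adjusted p = 0.0314) and without NiO 2 (2.502, adjusted p = 0.0430), and under CuO without CuO 3 (2.75, adjusted p = 0.0378). Without all 4 eye-low arrays it passed under CuO (2.20, adjusted p = 0.0202) and ZnO (2.46, adjusted p = 0.0250). That fit kept controls 1 and 2, neither well above background for tshba, and control 1 was low in gh1. The exposed arrays it kept were all high in gh1, so nothing is read from these passes.

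Luteinizing hormone beta averaged -6.84 ± 2.401 on control arrays, -3.85 ± 2.13 with CuO, -4.33 ± 0.84 with ZnO and -5.83 ± 1.35 with NiO (SD, n = 3 each). Its log2 differences of 2.99 (95% interval 0.08 to 5.89), 2.51 (-0.40 to 5.41) and 1.01 (-1.90 to 3.92) had limma adjusted p-values of 0.116, 0.184 and 0.612. Arrays of exposed and control groups overlapped in each contrast, and control 2 was the only control well above background for lhb. The gene was tested only through CuO and ZnO, its highest groups and the only ones with 3 arrays well above background. With normexp the differences were 1.50, 1.03 and 0.43, and none passed. Without control 2, lhb passed under CuO (4.32, adjusted p = 0.0338) and under ZnO (3.84, adjusted p = 0.0468), and without CuO 3 under CuO (4.20, adjusted p = 0.0418).

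For gh1, prl and pomca 1 or more groups had an SD larger than every difference from the controls. The mean of gh1 was -4.19 ± 3.88 for controls, -1.75 ± 4.18 with CuO, -2.37 ± 5.68 with ZnO and -1.68 ± 3.96 with NiO (SD, n = 3 each), and its log2 differences were 2.45 (95% interval -4.76 to 9.65), 1.82 (-5.39 to 9.03) and 2.51 (-4.69 to 9.72). Limma adjusted p-values of gh1 were 0.587, 0.706 and 0.610. The means of prl were -5.11 ± 4.46, -2.31 ± 3.23, -1.95 ± 6.36 and -2.13 ± 5.49 in the same order (SD, n = 3 each). Its log2 differences were 2.81 (95% interval -5.26 to 10.87), 3.16 (-4.90 to 11.23) and 2.98 (-5.09 to 11.05), with limma adjusted p-values of 0.577, 0.548 and 0.587. Changes of many-fold in either direction lie within these intervals, so at this spread neither a rise nor a fall of gh1 or prl could be detected.

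The means of pomca were -1.63 ± 1.29, -0.39 ± 3.25, -1.79 ± 5.002 and -1.08 ± 3.74 in controls, CuO, ZnO and NiO (SD, n = 3 each). Its log2 differences were 1.25, -0.15 and 0.55 by limma, with adjusted p-values of 0.734, 0.973 and 0.898. The difference under ZnO turned to 2.73 without ZnO 1 and to 0.59 without control 2. Without the 4 eye-low arrays pomca passed under CuO (2.76, limma adjusted p = 0.0374). That fit set CuO 1 and CuO 2, both high in gh1, against control 1, low in gh1, and control 2. It thus carries the split of the arrays, and nothing is read from the pass. The 3 untested mean differences of cga were 2.28, 1.29 and 1.31, from a control mean of -5.89, with SDs of 3.38 to 4.85.

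**Figure D3:**
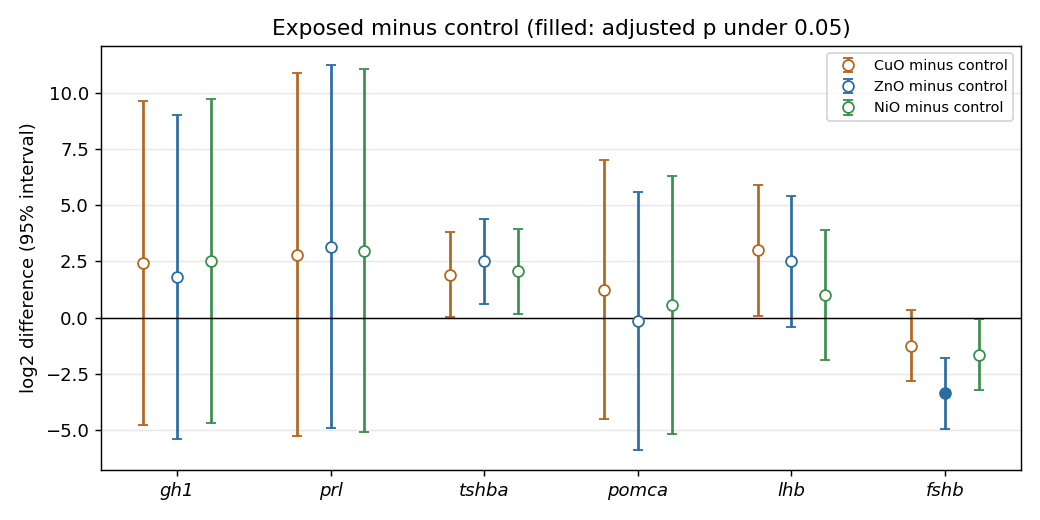
Log2 differences from the controls for the 6 tested members under CuO, ZnO and NiO, with 95% intervals from limma; filled points passed an adjusted p of 0.05. The intervals of gh1, prl and pomca are the widest and include 0, and fshb under ZnO, at -3.37, is the single filled point.

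Between pairs of exposures, 0 of 18 member tests passed, and 0 of 12616 genes passed in any of the 3 pairs by limma. At an unadjusted p of 0.05, fshb passed between CuO and ZnO and between ZnO and NiO, and no member passed between CuO and NiO. Over all genes 1252 passed at that level between CuO and ZnO, 784 between CuO and NiO and 620 between ZnO and NiO. Doses differed between the metals, so these differences do not compare the metals at equal dose.

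Further genes of the pituitary axis were described from 6 lists in the same fit, each list by its counts. The all-gene median difference was 0.42 under CuO, 0.32 under ZnO and 0.27 under NiO, and the shares called over all genes are those given above. Of the other pituitary hormones, 4 were tested (smtla, smtlb, pomcb and prl2) and 0 passed in any contrast, with list medians of 1.05, 0.64 and 0.21. The lowest limma adjusted p among them was that of smtla under CuO (log2 difference 1.40, SE 0.51, adjusted p = 0.0695).

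Of 11 tested transcription factors of the pituitary lineages, 2 rose and 1 fell under CuO, 1 rose and 1 fell under ZnO, and 2 rose and 1 fell under NiO, with medians of 1.50, 1.05 and 1.41. The gene pitx1, a homeobox factor known in mammals for switching on pomc, had log2 differences of -2.35 under CuO (SE 0.59) and -2.465 under NiO, and was at least 7.57-fold lower under ZnO, with limma adjusted p-values of 0.0165, 0.0170 and 0.00205 in that order. With normexp its log2 differences under CuO, ZnO and NiO were -0.90, -1.15 and -0.88, smaller but still called. Without the 4 eye-low arrays pitx1 missed the threshold under CuO (adjusted p = 0.0587) and NiO (0.128). Oocyte markers fell in the same contrasts (14, 14 and 13 of 15 genes, beside 13.7%, 11.9% and 12.1% of all genes), and their part in pitx1 was not tested. Its relative pitx3, known for lens and midbrain dopamine neurons, rose by 1.91, 1.71 and 2.63. The factor nr5a1a (steroidogenic factor 1) rose by 1.06 under CuO. The lineage factor pou1f1, which in mammals switches on the growth hormone, prolactin and thyrotropin beta genes, was well above background on NiO 2 alone, an array low in gh1 and prl.

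Of 8 tested enzymes and granule proteins that cut and store prohormones, 0 were lower on the 5 low arrays than on each of the other 7. Leaving out control 2, a choice made after seeing the data, scg5, chgb and scg3 were lower on the 5. On these, scg5 reached at most 1.85 and chgb -4.20, against at least 2.49 and -3.91 on the rest. For scg3 the values nearly met (-0.974 and -0.940). The genes cpe, scg2b and chga overlapped without control 2 as well. The convertases that process proopiomelanocortin, pcsk1 and pcsk2, stayed between -5.37 and -2.32 and between -2.998 and -1.67 over the 12 arrays and overlapped between the 5 low arrays and the other 7. Neither passed in any contrast, with log2 differences between -0.54 and -0.0043 for pcsk1 and between -0.21 and -0.03 for pcsk2. Of the 8 tested genes of this list, 2 rose under CuO, 1 under ZnO and 0 under NiO: cpe (carboxypeptidase E) by 0.74 and 0.71, and scg5, a chaperone of pcsk2, by 1.73 under CuO.

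Receptors for the circulating hormones were well above background in several cases. Of 8 tested receptors, 1 rose and 1 fell under CuO, 0 rose and 2 fell under ZnO, and 1 rose and 0 fell under NiO. The growth hormone receptor ghra rose by 1.27 under CuO (SE 0.39, limma adjusted p = 0.0365) and by 1.34 under NiO (SE 0.39, adjusted p = 0.0333), from a control mean of -0.03 ± 0.54 (SD, n = 3), and under ZnO it differed by 0.66 (adjusted p = 0.234). All 3 CuO and all 3 NiO arrays lay above the 3 controls for ghra, as in 48.2% and 42.5% of all tested genes in either direction. The paralog ghrb and the prolactin receptor prlrb did not pass, with log2 differences between -0.28 and 1.56 and between -0.0017 and 1.23. The luteinizing hormone receptor lhcgr, known in ovarian follicle cells, was at least 21.8-fold lower under CuO and 21.5-fold lower under ZnO than the control mean. That mean was -2.60 ± 3.34 (SD, n = 3), from control levels of -0.17, -6.41 and -1.21. The bounds do not hold against control 2 alone. On NiO 1, the exposed array with a high oocyte median (2.61), lhcgr was -2.98 and well above background. On NiO 2 (-8.48) and NiO 3 (-8.78) it was not well above background. The melanocortin receptor mc5rb fell by 1.81 under ZnO. Both lhcgr and mc5rb were tested only through the controls, their group with 3 arrays well above background. With normexp, lhcgr had log2 differences of -2.95 and -2.94, smaller than the bounds but still called, and without the 4 eye-low arrays it missed the threshold (adjusted p = 0.117 and 0.125). With normexp mc5rb had -0.21 (adjusted p = 0.485). Oocyte markers moved with both genes, with 14 of 15 lower in each contrast, beside 13.7% of all genes under CuO and 11.9% under ZnO. Their part was not tested.

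Of 19 tested hypothalamic peptides and their pituitary receptors, 1 rose and 2 fell under CuO, 0 rose and 2 fell under ZnO, and 0 rose and 1 fell under NiO. The gonadotropin-releasing hormone receptor gnrhr4 fell, with log2 differences of -2.73 under CuO and -3.29 under ZnO, and was at least 7.58-fold lower under NiO, with limma adjusted p-values of 0.0235, 0.0116 and 0.00994. The peptide kiss2 (kisspeptin 2) fell, with log2 differences of -3.84 under CuO and -4.33 under ZnO, and the receptor crhr2 rose by 0.88 under CuO. With normexp, gnrhr4 had -1.08, -1.32 and -1.43 and kiss2 -1.83 and -1.98, all still called. Without the 4 eye-low arrays kiss2 had -2.14 (adjusted p = 0.0978) and -2.68 (0.0633), and with the replicate block it missed the threshold (adjusted p = 0.0712 and 0.0501). Without these 4 arrays gnrhr4 missed it under NiO (adjusted p = 0.0521). Both were tested only through the controls. Oocyte markers fell with them for 14, 14 and 13 of 15 genes under CuO, ZnO and NiO, beside 13.7%, 11.9% and 12.1% of all genes. The part of these markers was not tested. Of 11 tested genes downstream of growth hormone and thyrotropin, 0 passed under CuO and 1 under both ZnO and NiO, cisha, a cytokine-signalling inhibitor, higher by 1.14 and 1.05. The growth factor gene igf1 had log2 differences of 1.28, -0.15 and 0.07 and did not pass.

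These calls rest on few arrays. Of the 24 calls in the related lists, 5 were kept without any 1 array (pitx3 under CuO and NiO, pitx1 under ZnO, gnrhr4 under ZnO and NiO), and 18 were lost without control 1. Without control 3 the count lost was 16, without CuO 1 or CuO 2 it was 10 each, and without each of the other 8 arrays it was 3 to 9. Without the 4 eye-low arrays 18 were lost, with ribosomal protein centring 9, with the replicate block 7, and with the mean of all probes 6. With the series table read by its column names 17 were lost and 7 turned direction. The ghra call was also lost without control 2 or NiO 1 under both exposures, without CuO 1 or CuO 3 under CuO, and without NiO 2 or NiO 3 under NiO. Without control 1, ghra was higher by 1.02 under CuO (adjusted p = 0.117) and by 1.09 under NiO (adjusted p = 0.109), lhcgr missed the threshold under CuO and ZnO (adjusted p = 0.0732 and 0.0772), and pitx1 had -2.20 under CuO and -2.31 under NiO (adjusted p = 0.0534 in both). Under CuO and NiO, ghra also missed it with ribosomal protein centring (adjusted p = 0.129 and 0.0789), with the mean of all probes (0.0736 and 0.0879) and without the 4 eye-low arrays (0.0501 and 0.0743). The remaining call, pitx3 under ZnO, was lost without control 3 (1.49, adjusted p = 0.0702) or ZnO 2 (1.44, adjusted p = 0.0614).

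Of the 19 tested hypothalamic genes, 5 were lower on the 5 arrays than on each of the other 7, and 14 were not, beside 3.94% of all tested genes; those named here were chosen after their values were seen. The oxytocin gene oxt had levels of -7.63, -1.39 and -8.99 in the controls and 1.19, 0.90 and -6.97 under CuO, and of -6.62, 0.98 and -0.69 under ZnO and -0.21, -8.74 and 0.03 under NiO. Thus oxt was lower on the same 5 arrays with a gap of 5.22, or 37.3-fold. The vasopressin gene avp was low on control 1 (-6.995), CuO 3 (-6.20), ZnO 1 (-7.62) and NiO 2 (-6.61), but control 3 (-2.08) lay among the other 7, which ran from -3.17 to -0.92. The melanin-concentrating hormone gene pmchl was lower on the 5 by a gap of 1.72 and trh (thyrotropin-releasing hormone) by 0.79. The appetite peptide npy was -1.24 on control 1 and -4.74 or lower on the 4 eye-low arrays, below all of the other 8. Others were highest on eye-low arrays: crhb (corticotropin-releasing hormone) on NiO 2 (0.76) and ZnO 1 (0.12), and adcyap1a, a pituitary adenylate cyclase-activating peptide gene, on NiO 2 (1.34) and CuO 3 (0.80).

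**Figure D4:**
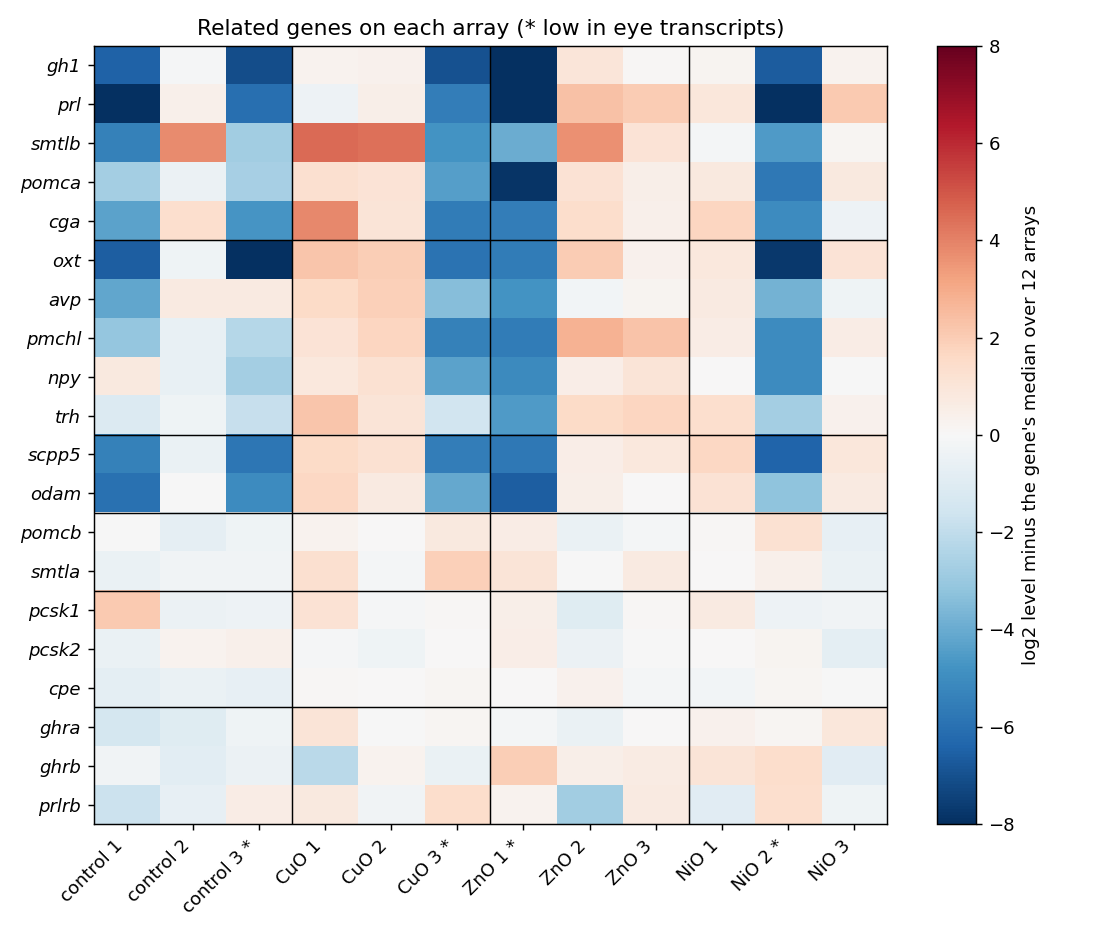
Level of hormone genes, hypothalamic peptides, dental genes, processing enzymes and receptors on the 12 arrays, each as the log2 difference from the gene's median over the arrays, with the colour scale ending at -8 and 8. The rows of gh1, prl, smtlb, pomca, cga and oxt, and the dental genes scpp5 and odam, are low on control 1 and the 4 eye-low arrays. Those of pomcb, smtla, pcsk1 and pcsk2 overlap between these arrays and the others.

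The genes most like each member were sought among 11433 genes that stood clear of background on 6 or more arrays, by Pearson's r of the log2 level over the 12 arrays. Because the arrays fall into separate sets, this r mainly restates the split, and r within the 7 arrays high in gh1 is given beside it, both as descriptions over arrays that share groups and depth. The gene scpp5, which encodes a secreted protein of tooth mineralisation, was nearest to gh1 (r = 0.97 over 12 arrays, 0.195 over 7), to prl (0.949 and -0.168) and to cga (0.955 and 0.307). It ran from -6.04 to -4.99 on the 5 low arrays and from -0.13 to 2.06 on the other 7, a 29.0-fold gap. Next to gh1 came pde6ga, a photoreceptor phosphodiesterase subunit (0.967 and 0.879), and odam, an enamel-organ protein gene (0.966 and 0.185).

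For pomca and tshba, r was also high within the 7 arrays. The 3 genes nearest to pomca were fezf2, a forebrain transcription factor (r = 0.973 over 12 arrays, 0.983 over 7), glipr1b (0.973 and 0.943) and kcnv2b, a potassium channel subunit (0.971 and 0.918). The 3 nearest to tshba were adarb1a, an RNA-editing enzyme (0.982 and 0.938), pcdh1g32 (0.974 and 0.964) and camk2n2a (0.97 and 0.933). Control 2 was the lowest of the 7 for both members and not well above background for tshba. Without it, a choice made after seeing the data, r of tshba with pcdh1g32 was 0.577, with adarb1a 0.78 and with camk2n2a 0.868. That of pomca was then 0.977 with fezf2, 0.943 with glipr1b and 0.704 with kcnv2b. For scpp5, r without control 2 was -0.554 with gh1, -0.84 with prl and 0.581 with cga. For prl the other 2 were nrsn1 (0.943 and 0.575) and ptpreb (0.942 and 0.245), and for cga oxt was among the nearest (0.941 and 0.425). The nearest to lhb were gsg1l (0.905 and 0.348), nebl (0.904 and 0.659) and th, tyrosine hydroxylase (0.904 and 0.87). The gene fshb was well above background on fewer than 6 arrays and was left out.

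Among the members themselves, r within the 7 arrays was 0.915 for pomca with tshba, but 0.536 without control 2. It was 0.768 for gh1 with tshba, and 0.958 without control 2. For gh1 with prl it was 0.455 and for prl with cga -0.739.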

How the data were processed

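Gill RNA of 12 samples was measured on one-colour Agilent zebrafish arrays. Each deposited scanner file holds processed intensity values from Feature Extraction 11.5.1.1, per the file headers, background-subtracted by that software. MAS5 appears in the submitters' processing notes without a version, and how it was used is not given in the sources at hand. The deposited series table also holds intensity per probe on a linear scale, with column medians from 145.4 to 583.4. Its scale and lack of centring were settled by a match to the scanner values (equal within 0.1% for at least 99.8% of probes), but 10 of 12 columns matched another sample's array, so it served only as an alternative. The labels mention a dye swap, yet each file holds 1 channel.

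Control and outlier spots (0.0594% to 1.8% per array) were left out, spots of a probe averaged, and log2 signals taken relative to each array's 75th percentile, which ran from 1390 to 3319. Of 43603 probes 26094 were matched through RefSeq accessions to current symbols of the GRCz12tu annotation, used for names only, since the array's own annotation is of another build. Testing required a probe to stand well above background throughout the 3 arrays of some group, and the probe with the highest mean represented its gene: 12616 genes, 6 of them members. Groups were compared in limma 3.58.1 (R 4.3.3) with a mean for each of 4 groups, moderated variances and p-values adjusted by Benjamini-Hochberg within each contrast, at 0.05. The fit was also run on simulated data with independent noise for each gene. These lack the sets of genes that move together on the arrays here, so nothing is read from that run. A group not well above background on any array gives a bound ("at least"), computed per array against the lowest signal that counted as well above background, or the dim signal itself where higher.

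The labels call the samples biological replicates, and the p-values thus cover variation between pools of fish. Position on the slide follows group, so both cannot be told apart, and slide number equals replicate number. Named genes were all members, up to 4 called genes per related list and contrast by size, a few fixed genes of the axis, and the 3 genes nearest to each member. Some genes that this rule names are not reported here. Genes named outside that rule (oxt, avp, pmchl, trh, npy, crhb, adcyap1a, igf1, ghrb, prlrb, pomcb, prl2, scg2b, scg3, chga and chgb) were chosen after their values were seen. The members and lists were chosen with earlier results of these data known. The alternatives were another background correction, 3 other scalings, 2 other filters, the mean of probes, the series table, a replicate block and leaving out arrays. The other background correction, normexp, used the median signal with an offset of 50, which shrinks log2 differences between dim signals.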

Additional observations from a re-analysis of the deposited data

How the results depend on the processing

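Member calls were recomputed under 22 alternatives. The count of members called under CuO (0) became 2 without the 4 eye-low arrays, and 0 to 2 over the fits that leave out 1 array. Nothing is read from the count without the 4 arrays, as that fit kept control 1, low in gh1, and only exposed arrays high in gh1. The ZnO count (1) became 0 with normexp background (on the median signal), 0 with a filter of 6 arrays well above background, where fshb was not tested, and 0 in the series table as labelled, and ranged from 1 to 2 without 1 array. The NiO count (0) became 1 with the mean of all tested probes (fshb, -2.28, adjusted p = 0.0286) and stayed at 0 without any 1 array. The F test count (1) became 0 with normexp, the 6-array filter, the series table and without the 4 arrays, and ranged from 0 to 1 without 1 array. Between pairs of exposures it was 0 throughout. The difference of pomca under ZnO (-0.15) turned to 0.66 with normexp, 0.71 in the series table and 2.37 without the 4 arrays, and ranged from -1.76 to 2.73 without 1 array; pomca under NiO ranged from -0.53 to 2.71 and gh1 under ZnO from -0.024 to 5.09. The series table also turned tshba (-0.57), lhb (-1.75), fshb (1.01) and kiss2 (1.32) under ZnO, lhcgr to 0.0493 under ZnO and 0.0486 under CuO, and fshb (0.72), crhr2 (-0.30), ghra (-0.0073), kiss2 (1.35) and pitx1 (0.70) under CuO; 10 of its 12 columns match arrays linked to other samples. Over all genes, calls under CuO, ZnO and NiO were 3162, 3241 and 2805, and 0, 0 and 0 in the series table, 2692, 1927 and 5 without the 4 arrays, and 1876, 1545 and 961 without control 3. Ribosomal protein centring lowered the all-gene medians to 0.12, 0.03 and 0.10. Causes of these moves were not tested.

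Replicate numbers did not pair the samples: deviations of 18 same-numbered pairs correlated from -0.578 to 0.479, with 7 over 0.1, and those of different numbers from -0.631 to 0.637. With the replicate number, which is also the slide, as a block, fshb under ZnO had an adjusted p of 0.0123, the members called stayed at 0, 1 and 0, and calls over all genes were 2975, 2934 and 2555. Arrays on which a member was not well above background limit its differences to bounds.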

Other observations

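All 12616 tested genes were ranked by the gap between control 1 with the 4 eye-low arrays and the other 7, an order made after the values were seen. Control 1 was put in this set because gh1, prl, pomca and cga were low on it, so nothing is read from the ranks of members. By this order gh1 had rank 1 with a gap of 6.36 and prl rank 3 with 5.13. The other genes of the leading 8 were, in order, oxt (5.22) at rank 2, scpp5 (4.86), odam (3.14), smtlb (2.65), pde6ga (2.502) and pomca (2.21). Eye genes also ranked high here, with cryabb, a lens crystallin, at 14, sagb of the retina list at 19 and rbp4l at 40. Between the 4 eye-low arrays and the other 8, their gaps were larger: 2.56 for cryabb (1.78 with control 1), 3.31 for sagb (1.503) and 6.82 for rbp4l (1.198). For pde6ga, also of the retina list, that gap was smaller (1.22 against 2.502 with control 1).

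By the scanner files, the 5 arrays low in gh1 were 2 controls and 1 array each of CuO, ZnO and NiO. Under the column names of the series table the same arrays would be 2 controls, 2 ZnO and 1 NiO array and no CuO array.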
